A study of Homo sapiens with 4 samples.

Results

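Expression of the 10 nucleotide excision repair genes RAD23B, DDB1, ERCC6, ERCC8, ERCC2, ERCC3, XPA, ERCC1, ERCC4 and ERCC5 was examined in cisplatin-resistant head and neck squamous cell carcinoma (HNSCC) cells and their parental cells. The members were taken by gene name, and all of their probes on the array were used, which gave 21 of 58201 probes and 10 of 43317 gene names. The data are 4 one-colour Agilent arrays, 1 for each of HN4, HN4_CR, HN30 and HN30_CR. HN4 and HN30 are human HNSCC cell lines, for which the labels name no cisplatin in the medium. HN4_CR and HN30_CR, called HN4/DDP and HN30/DDP by the study and below, were selected from these lines under rising cisplatin doses and held for 48 h with 20 μM of the drug. No array measured a resistant line without cisplatin or a parental line with it, so lasting resistance and the drug at harvest cannot be told apart.

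Cisplatin forms platinum adducts on DNA, and those within 1 strand are removed mainly by nucleotide excision repair. In global repair the lesion is found by XPC with RAD23B and CETN2, or by the DDB1-DDB2 ubiquitin ligase, while in transcribed strands a stalled polymerase calls in ERCC6 (CSB) and ERCC8 (CSA). The helicases ERCC3 (XPB) and ERCC2 (XPD) of the TFIIH complex then open the DNA, XPA and RPA check and hold it, ERCC5 (XPG) and the ERCC1-ERCC4 (XPF) nuclease cut on either side of the lesion, and DNA polymerases and ligases fill the gap. ERCC1 is widely studied as a marker of the response to platinum drugs.

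An array probe is a DNA strand of 60 bases that binds 1 stretch of a transcript, so different probes of a gene can see different transcripts. Some of the member probes are shown because the results below turn on whether the probes of a gene gave like values. They are the 2 probes of ERCC1, the 2 of ERCC2 and the probe that the array assigns to the non-coding XPA transcript NR_027302, written 5′ to 3′ in lower case, with no base singled out.

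ERCC1 upstream probe (chr19:45918124-45918183, minus strand, NM_202001): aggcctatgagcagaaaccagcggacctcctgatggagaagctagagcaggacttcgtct
ERCC1 downstream probe (chr19:45917222-45917281, minus strand, NM_202001): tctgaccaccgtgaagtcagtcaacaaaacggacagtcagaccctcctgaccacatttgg
ERCC2 upstream probe (chr19:45864815-45864874, minus strand, NM_000400): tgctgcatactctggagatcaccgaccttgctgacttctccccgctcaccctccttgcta
ERCC2 downstream probe (chr19:45856515-45856574, minus strand, NM_000400): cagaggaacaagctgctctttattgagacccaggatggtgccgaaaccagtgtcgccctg
XPA non-coding transcript probe (chr9:100444591-100444650, minus strand, NR_027302): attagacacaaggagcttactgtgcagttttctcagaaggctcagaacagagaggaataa

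Positions are those of the scanner files on hg19, and upstream and downstream follow the direction of the gene. Exon and intron annotation of hg19 was not used here. The ERCC5 probe that represents the gene is also listed for NM_001204425, which the RefSeq table names as the BIVM-ERCC5 readthrough transcript, so signal from ERCC5 and from that transcript cannot be told apart.

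Levels are given as log2 processed intensity after subtraction of the log2 75th percentile of its array, and a difference is the level in the resistant line minus that in its parental line. Each gene was represented by its brightest probe, and all 10 genes were well above background on all 4 arrays. Of the 21 probes, 17 were well above background on all arrays and 3 on none. The SD from the scanner's own error model, given as the scanner SD, ran from 0.20 to 0.26 for these 17 probes. With 1 array per condition a difference has no replicate check, and the number of arrays limits its precision. A gene was counted as higher or lower when its difference was past 1, a 2-fold difference, and the brighter array of the pair showed it well above background. The 4 arrays shared 1 slide and 1 scan time.

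The arrays themselves differed in ways that touch these genes. All genes were split into 4 bins of equal size by brightness. In HN30/DDP the brightest bin had a median difference of -0.42 and the dimmest 0.45, whereas in HN4/DDP these medians were -0.09 and -0.08. Of the 10 members, 5 were in the brightest bin. Of 12 squamous epithelial markers, 12 were well above background on the HN4, HN4/DDP and HN30 arrays and 11 on the HN30/DDP array, without KRT6A. Their levels were not stable. In the HN4 pair KRT5 (-4.05) and DSC3 (-2.95) were lower past 1. KRT6A (3.32), KRT17 (3.29), KRT14 (2.33), DSG3 (1.84) and KRT15 (1.71) were higher there. In the HN30 pair KRT5 (-1.93), KRT15 (-1.60) and KRT6A (at least 183-fold) were lower, and DSC3 (1.12) and CDH1 (1.34) higher. The summed intensity of the 12 was 136580 for HN4 and 177650 for HN4/DDP, then 119330 for HN30 and 77292 for HN30/DDP. Of 6 fibroblast genes COL1A2, COL3A1, DCN and LUM were not well above background on any array, while COL1A1 and PDGFRB were on all. COL1A1 was higher by 1.73 in the HN4 pair and by 2.43 in the HN30 pair, and the summed intensity of the 6 was 195 for HN4 and 510 for HN4/DDP, then 99.5 for HN30 and 370.4 for HN30/DDP. Among 6 endothelial genes 2 to 4 were well above background, and their summed intensity was 139 for HN4 and 164 for HN4/DDP, then 106.6 for HN30 and 252 for HN30/DDP. Of 4 immune genes CD14 and PTPRC were well above background on all arrays, and the summed intensity of the 4 was 3143, 4608, 1627 and 19016 in the order HN4, HN4/DDP, HN30, HN30/DDP. Of 30 genes of a proliferation list, 5 were counted as lower in HN4/DDP, where 8.65% of all genes were, and 30 in HN30/DDP, where 13.3% were. Their median difference was -0.44 in the first and -1.93 in the second. Their summed intensity was 501780 for HN4 and 360940 for HN4/DDP, then 529390 for HN30 and 157540 for HN30/DDP. Fewer cells of a kind and less RNA per cell cannot be told apart in such bulk samples, and the part of these values in the results below was not tested.

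In HN4/DDP the incision nucleases stood highest among the members, with ERCC1 at 2.04 times its level in HN4, ERCC4 at 1.73 times and ERCC5 at 1.46 times. ERCC1 was the 1 member counted as higher and 0 were counted as lower, while 9.31% of the 26857 genes tested were higher by the same rule and 8.65% lower. In HN30/DDP 0 members were counted as higher and ERCC8 was the 1 counted as lower, against 19.8% higher and 13.3% lower among 28333 genes. The counts of members are thus near or below the background in both lines. No member was past a difference of 2, the threshold the study used, which 3.62% of genes exceeded upward and 2.2% downward in HN4/DDP, and 8.37% and 2.75% in HN30/DDP. Past the lower limit of 0.5, the 3 incision genes were higher in HN4/DDP and 0 members lower, where 18.9% of all genes were higher and 22.6% lower. By that limit ERCC4, and ERCC2 at 1 of its 2 opposed probes, were higher in HN30/DDP (32.1% of all genes), and RAD23B, DDB1, ERCC8 and ERCC3 lower (26.4%). The median difference of the members was 0.16 in HN4/DDP, where that of all genes was -0.08, and -0.13 in HN30/DDP, where that of all genes was 0.06. The value of -0.13 became 0.081 with the probes of each gene averaged and -0.55 with median scaling, which moved all genes by -0.42.

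**Figure D1:**
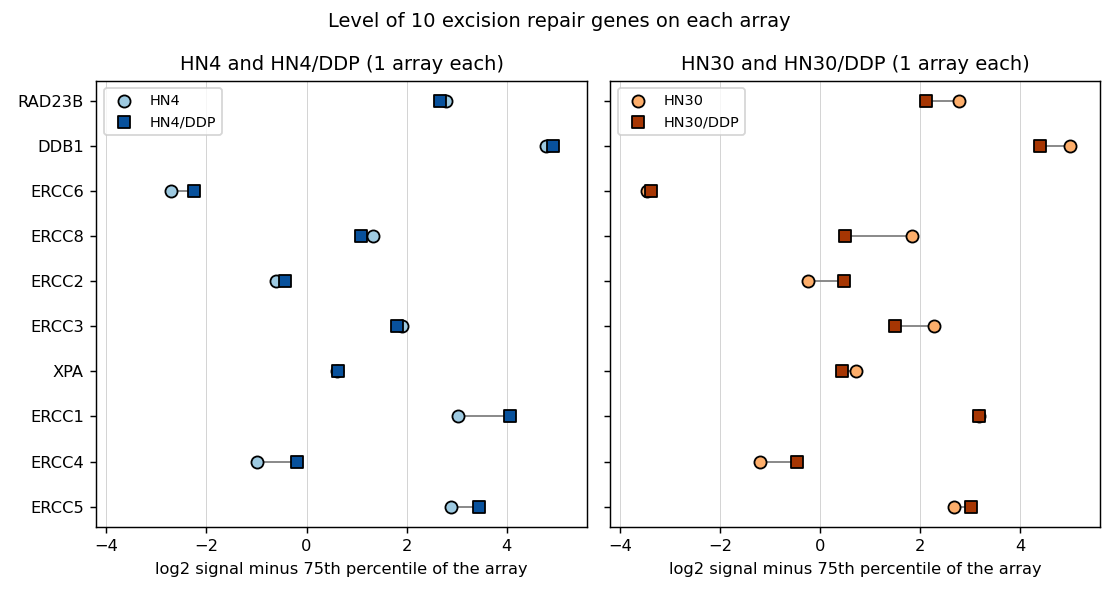
Level of the 10 members on each array (log2 processed intensity after subtraction of the log2 75th percentile of its array), with circles for the parental and squares for the resistant line, 1 array each and no error bar. The widest gaps are those of ERCC1 in HN4/DDP, 1.03, and of ERCC8 in HN30/DDP, -1.34. Positions of different genes are set by their probes and are not to be compared.

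ERCC1, the subunit that anchors the ERCC4 nuclease to the DNA, had levels of 3.04 for HN4 and 4.07 for HN4/DDP, then 3.18 for HN30 and 3.18 for HN30/DDP at the upstream probe. HN4/DDP stands apart from the other 3 arrays, which lie close together. The downstream probe, listed for the same transcript, gave 2.29, 3.25, 2.39 and 2.56 in the same order. The difference in HN4/DDP was 1.03 at the first probe and 0.95 at the second (scanner SD 0.20 each), so the count of 1 rests on a probe just past the threshold with its partner just short of it. In HN30/DDP the difference was 0.00 and 0.17. This value depended on the scaling, from -0.42 with median scaling to 0.46 with quantile normalization at the first probe, whereas in HN4/DDP the value of the gene stayed between 0.99 and 1.11 in every setting. The change in HN30/DDP minus that in HN4/DDP was -1.02 at the upstream probe (scanner SD 0.29), which was not tested for lack of replicates.

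ERCC4 carries the catalytic site of the ERCC1-ERCC4 nuclease, which cuts on the 5′ side of the lesion. Its levels were -0.99 for HN4 and -0.20 for HN4/DDP, then -1.21 for HN30 and -0.46 for HN30/DDP, so both resistant arrays were above both parental ones. The share of all genes with this order was not counted. The resistant line was higher by 0.79 in the HN4 pair and by 0.75 in the HN30 pair, each with a scanner SD of 0.21. The dimmer probe (chr16:14042239-14042298, plus strand) gave 0.52 (scanner SD 0.24) and 0.44 (scanner SD 0.25), and the second of these came to -0.0012 with quantile normalization. The gene value was positive in both lines in every setting, with 0.65 the lowest and 0.84 the highest in HN4/DDP. The corresponding limits for HN30/DDP were 0.33 and 0.76.

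ERCC5, the nuclease that cuts on the 3′ side, is measured by a probe printed in 10 copies on each array, which shows the error within an array. In HN4 the copies gave a mean of 2.90 (SD 0.03, 8 spots after outliers were left out) and in HN4/DDP 3.45 (SD 0.03, 10 spots). For HN30 the mean was 2.67 (SD 0.02, 8 spots) and for HN30/DDP 3.02 (SD 0.01, 10 spots). The copies of the resistant arrays did not overlap those of their parental arrays. The lowest copy in HN4/DDP was 3.42 against a highest of 2.96 in HN4, and the lowest in HN30/DDP was 2.99 against a highest of 2.69 in HN30. Over 300 probes printed in copies, the median SD of the copies ran from 0.023 (HN30) to 0.028 (HN4). How many of these probes overlapped between the arrays of a pair was not counted. Copies share their RNA and labelling, so this spread leaves out the variation between cultures. The differences were 0.55 and 0.35, and the second ranged from -0.07 with median scaling to 0.75 with quantile normalization.

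The 3 other ERCC5 probes are assigned to other transcripts by the array, and whether they also bind the ERCC5 messenger RNA was not tested. One for ENST00000375958 was higher by 0.06 in HN4/DDP and 0.68 in HN30/DDP (scanner SD 0.23 and 0.25), and with normexp background correction by only 0.18 in HN30/DDP. One for AK294708, whose match spans 2732 bases of the genome, was lower by 0.34 in HN4/DDP, within its scanner SD of 0.44. It was not well above background in HN30, and its level in HN30/DDP was at least 1.08-fold higher. The third was not well above background on any array.

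**Figure D2:**
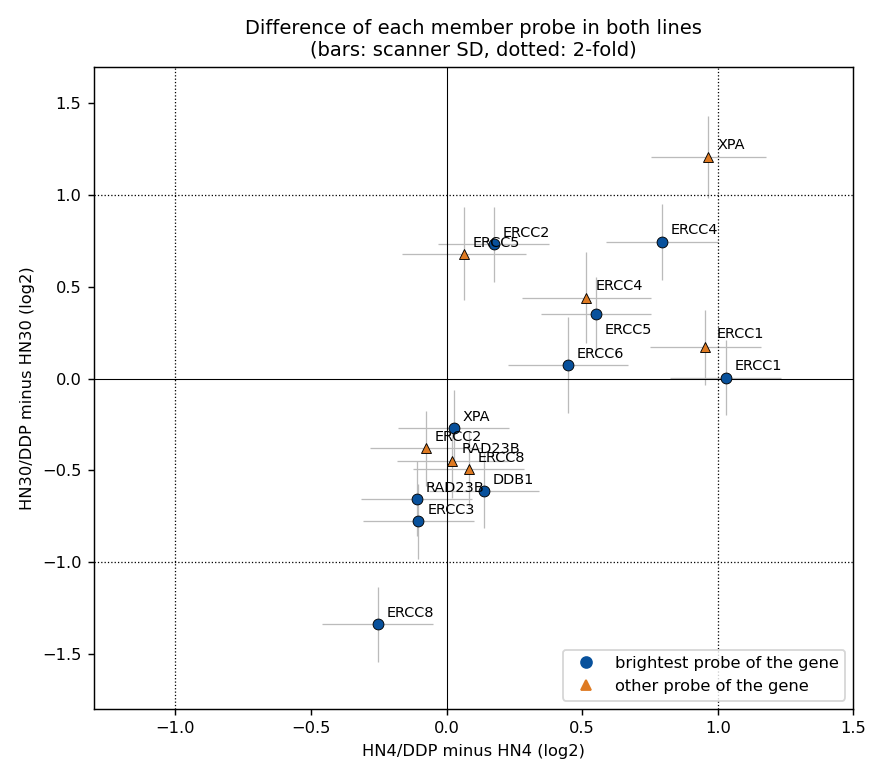
Difference of each of the 17 member probes well above background on all arrays, HN4/DDP minus HN4 on the x axis and HN30/DDP minus HN30 on the y axis (log2). Bars are the scanner SD of the difference, which leaves out variation between cultures, circles are the brightest probes and triangles the other probes. The XPA probe of the non-coding transcript lies at 0.97 and 1.21, away from the XPA mRNA probe at 0.03 and -0.27.

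XPA, the scaffold that checks the opened DNA, is one of the members whose probes differed. The mRNA probe (chr9:100437513-100437572, minus strand, NM_000380) had levels of 0.60 for HN4 and 0.63 for HN4/DDP, then 0.70 for HN30 and 0.43 for HN30/DDP. The probe of the non-coding transcript gave -2.28, -1.31, -2.84 and -1.63 in the same order. At the mRNA probe the differences were 0.03 and -0.27, and the second became -0.69 with median scaling. It was 0.34 as the mean of the gene's probes, which takes in a probe not well above background on any array. At the other probe both resistant arrays were above both parental arrays, an order whose share among all probes was not counted. Its signal was higher by 0.97 (scanner SD 0.21) in the HN4 pair and by 1.21 (scanner SD 0.22) in the HN30 pair. Whether this probe also binds other transcripts was not tested. Both differences at this probe were positive in every setting and smallest with normexp background correction, 0.67 and 0.69. The mRNA probe is also listed for NR_027302, so it can bind both transcripts. The third XPA probe, for XR_428536, was not well above background on any array.

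Both helicases of TFIIH are members. ERCC3 had levels of 1.92 for HN4 and 1.81 for HN4/DDP, then 2.27 for HN30 and 1.49 for HN30/DDP, and HN30/DDP was the lowest array. Its differences were -0.10 and -0.78 (scanner SD 0.20 each), and the second moved to -0.44 with quantile normalization and to -1.20 with median scaling. ERCC2 at its downstream probe gave -0.61, -0.43, -0.25 and 0.48 in the same order, with HN30/DDP the highest. The upstream ERCC2 probe gave -0.60, -0.67, -0.31 and -0.69, so in HN30/DDP the 2 probes moved apart, at 0.73 and -0.38 (scanner SD 0.20 and 0.21). They had opposite signs in HN30/DDP in every setting at the probe level, from 0.31 to 0.86 downstream and from -0.80 to -0.31 upstream. The downstream probe is listed for NM_000400 and the upstream one for NM_000400 and NM_001130867. No single direction can be given for ERCC2 in HN30/DDP from these probes.

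Both members that sense lesions in global repair were near the parental level in HN4/DDP, and below it in HN30/DDP. RAD23B, which stabilises XPC, had levels of 2.79 for HN4 and 2.68 for HN4/DDP, then 2.77 for HN30 and 2.11 for HN30/DDP. DDB1, the adaptor of the ubiquitin ligase that holds DDB2 and also of the one that holds ERCC8, had 4.79, 4.93, 5.00 and 4.39. For both genes HN30/DDP was the lowest of the 4 arrays. The differences in HN30/DDP were -0.66 for RAD23B and -0.61 for DDB1 (scanner SD 0.20 each). They were -0.28 and -0.09 with quantile normalization, and -1.08 and -1.03 with median scaling, which puts both past the threshold. The second RAD23B probe (chr9:110081100-110081159, plus strand) gave 0.02 for the HN4 pair and -0.45 for the HN30 pair. The other DDB1 probe was not well above background on any array.

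In transcription-coupled repair, ERCC8, which recognises the stalled polymerase complex as part of a ubiquitin ligase, had levels of 1.34 for HN4 and 1.08 for HN4/DDP, then 1.83 for HN30 and 0.49 for HN30/DDP. This probe (chr5:60187724-60187783, minus strand) belongs to the cDNA clone AK022657. The HN30/DDP array was the lowest and HN30 the highest, a difference of -1.34 (scanner SD 0.20). The probe of the ERCC8 messenger RNA (chr5:60186716-60186775, minus strand, NM_001007233) gave -0.11, -0.03, 0.56 and 0.07, a difference of -0.49 in HN30/DDP. Both probes were lower in HN30/DDP in every setting, the clone's probe by -1.76 to -1.10 and the messenger's by -0.91 to -0.34. The mean of the probes was -0.92, which is not past the threshold.

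ERCC6, the ATPase that starts transcription-coupled repair, had levels of -2.70 for HN4 and -2.26 for HN4/DDP, then -3.47 for HN30 and -3.40 for HN30/DDP. It differed more between the cell lines than with resistance. The difference of HN30 from HN4 was -0.77 and that of HN30/DDP from HN4/DDP was -1.14, while those of resistant from parental lines were 0.45 (scanner SD 0.22) and 0.07 (scanner SD 0.26). The last value turned negative in 5 of 8 other settings and reached -0.38. ERCC6 was the 1 member past 1 between the resistant lines, lower in HN30/DDP, where 10.4% of genes were lower and 16.4% higher by that rule. Between the parental lines 0 members were past 1, against 3.32% of genes higher in HN30 and 7.08% lower.

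Over both lines, with 2 resistant against 2 parental arrays and the cell line as a block in limma, 1 residual degree of freedom remains per gene. ERCC4 had the smallest p of the members, with a mean difference of 0.77 (standard error 0.36, adjusted p = 0.649, Benjamini-Hochberg over 29521 genes), higher in 2 of 2 lines. ERCC8 followed with -0.80 (standard error 0.48, adjusted p = 0.712 by limma), lower in 2 of 2 lines at the probe of the clone. Its messenger probe was at 0.08 in HN4/DDP, and the value of the gene was -0.25 without the HN30 pair and -1.34 without the HN4 pair. The adjusted p of the 10 members lay between 0.649 and 0.952 by limma. No member passed an adjusted p of 0.05, and of all genes 0% did. Limma gave an unadjusted p under 0.05 for 0 members and 8.59% of all genes.

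**Figure D3:**
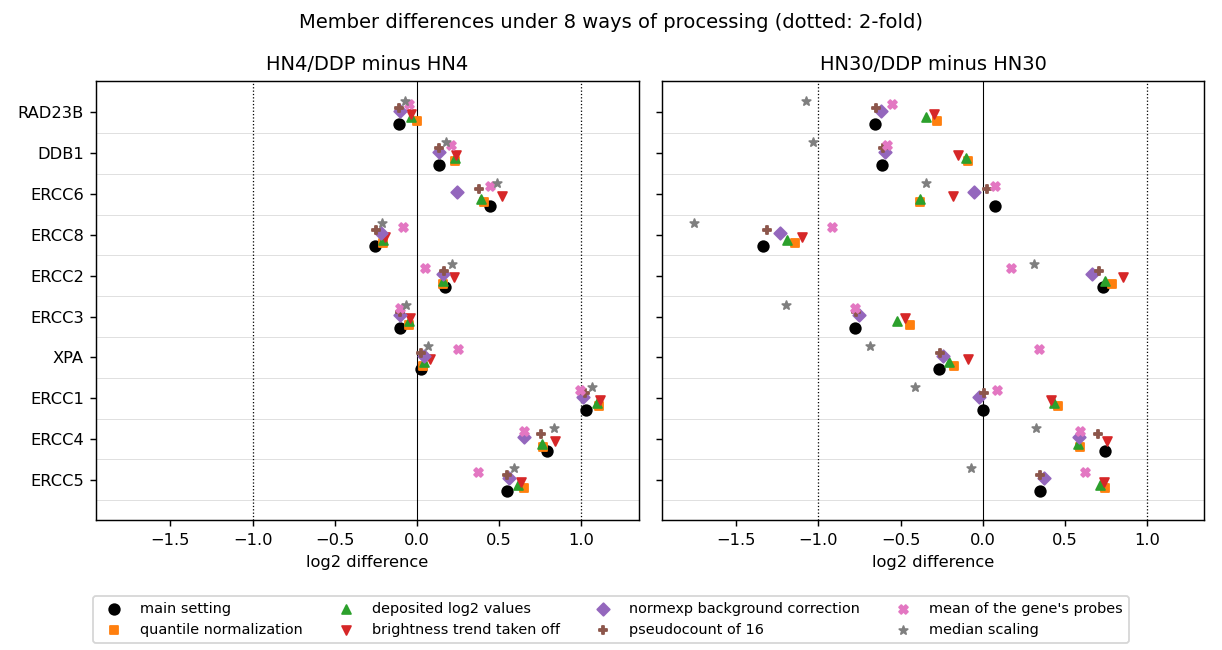
Differences of the 10 members in HN4/DDP (left) and HN30/DDP (right) under 8 ways of processing (log2), with the main setting as black circles and the 2-fold limits dotted. In HN4/DDP the settings lie close together and ERCC1 spans 0.99 to 1.11, while in HN30/DDP they spread, and ERCC1 spans -0.42 to 0.46.

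The other excision repair genes were described from a list by role, of which 41 of 42 were on the array. In HN4/DDP the median difference of the 41 was -0.19, with 2 counted as higher and 2 as lower, against 9.31% and 8.65% of all genes, so neither count stands above the background. The 2 higher ones were XPC and DDB2. XPC, which binds the distorted helix, had levels of -0.57 for HN4 and 0.46 for HN4/DDP, then -0.34 for HN30 and 0.09 for HN30/DDP. DDB2, which binds the lesion for the DDB1 ligase and is a p53 target as XPC is, had 5.14, 6.38, 4.98 and 5.76. The differences were 1.03 and 0.42 for XPC and 1.24 and 0.78 for DDB2 (scanner SD 0.20). Neither gene was past 1 in HN30/DDP, where median scaling moved all differences by -0.42. Their partners RAD23B and DDB1, at -0.11 and 0.14 in HN4/DDP, were nearer to the parental level. The 2 lower ones in HN4/DDP were RPA3, a subunit of the single-strand binding complex, at -1.18, and the elongation factor TCEA1 at -1.097.

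In HN30/DDP 21 of the 41 other genes were lower. The background was 13.3% of all genes and 24.2% of the brightest bin, to which 30 of the 41 belonged. Their median was -1.03. Of the genes that fill and seal the gap, 12 of 18 were lower, with a median of -1.41 for this role. They included PCNA, the sliding clamp, at -2.54, POLE2, a subunit of polymerase epsilon, at -3.16, the clamp loader genes RFC2 to RFC5 at -2.04, -1.93, -1.60 and -1.81, and the ligase LIG1 at -1.51. Further lower genes of this role were POLE4 at -2.03, POLE3 at -1.79, POLD2 at -1.31, POLD3 at -1.23 and POLE at -1.18. These genes also copy DNA in S phase, and the 30 proliferation genes were lower on the same array by a median of -1.93. Their part in this was not tested.

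Of the other genes that act before the gap is filled, those lower in HN30/DDP were, in TFIIH, GTF2H1 at -1.29, CCNH at -1.23, GTF2H3 at -1.03 and GTF2H4 at -1.03, which is 4 of the 7 TFIIH genes that are not members. They were joined by CETN2 at -1.68, the ubiquitin ligase scaffold CUL4A at -1.07 and its RING subunit RBX1 at -1.04, 3 of the 7 other recognition genes. In the RPA complex RPA2 at -1.11 and RPA3 at -1.07 made 2 of 3. The background for these counts was 13.3% of all genes and 24.2% of the brightest bin. The 3 incision genes, all members, had a median of 0.35. With median scaling ERCC1, ERCC4 and ERCC5 were at -0.42, 0.33 and -0.07, and with quantile normalization at 0.46, 0.59 and 0.75. POLD4, a small subunit of polymerase delta, was the 1 other gene higher in HN30/DDP, where 19.8% of all genes were. Its levels were 4.49 for HN4 and 5.47 for HN4/DDP, then 3.82 for HN30 and 6.03 for HN30/DDP. Its difference was 2.21 in HN30/DDP and 0.99 in HN4/DDP, just short of the threshold. The 21 became 12 with quantile normalization, with a median of -0.56 for the other genes, and 27 with median scaling, with a median of -1.45. The share of all genes lower was 13.1% and 23.9% in these settings.

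**Figure D4:**
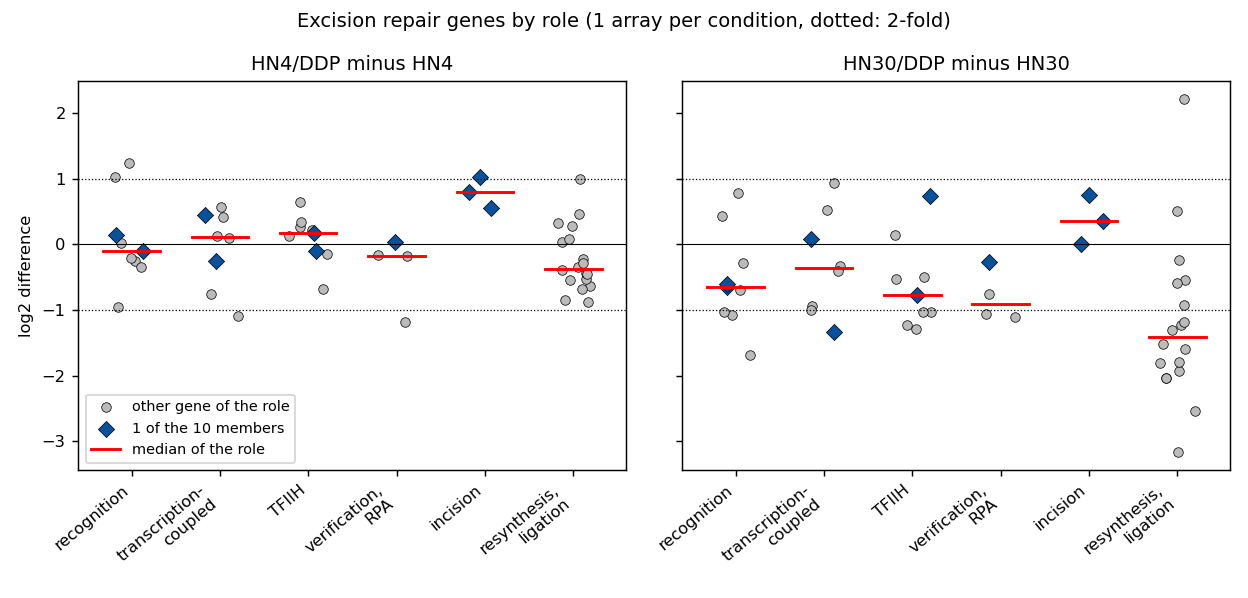
Differences of 51 excision repair genes by role in HN4/DDP (left) and HN30/DDP (right) on the log2 scale, 1 array per condition. Diamonds are the 10 members, grey circles the other genes and red lines the median of each role. In HN30/DDP in the main setting the resynthesis and ligation genes lie lowest, with a median of -1.41, and the incision genes have a median of 0.35.

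For comparison with other repair pathways, 7 mismatch repair genes, which act on replication errors, had medians of -0.15 in HN4/DDP and -0.65 in HN30/DDP, with 2 of 7 lower in the latter, where 13.3% of all genes and 24.2% of the brightest bin were. The 21 Fanconi and homologous recombination genes, which repair crosslinks between strands, had medians of -0.09 and -1.31, with 13 of 21 lower in HN30/DDP against the same background. No test compares these lists.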

How the data were processed

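Total RNA of 4 cell samples, 1 array each, was measured on the Agilent SurePrint human array of the study. The authors deposited the scanner output with spot intensity values, made by Agilent Feature Extraction 10.7.1.1 (background subtraction and spatial detrending within the array, none between arrays). A further deposited table holds log2 values of the authors, which are the same on every array once sorted. How it was normalized was not given in the sources used here.

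From the intensities, log2 signals of 60901 non-control spots were taken, outlier spots left out, the 75th percentile of each array subtracted and spots of a probe averaged. A gene is its probe with the highest mean. A probe that is dim on 1 array of a pair is given as a bound. The block fit used limma 3.58.1 (R 4.3.3), checked on simulated data, over genes detected above background on 1 or more arrays. Other steps used Python 3.11.15, pandas 2.3.3 and statsmodels 0.14.6. Probe sequences and hg19 positions come from the scanner files, and RefSeq names from the table of GRCh38.p14. The members, lists and tests were chosen with earlier results of these data known. Named genes are all members, XPC, DDB2, and the other listed repair genes past 1 in either line. Alternatives were other scalings, background corrections, probe rules, filters and folds.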

Additional observations from a re-analysis of the deposited data

Results flagged for a closer look

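Of the 51 excision repair genes on the array, 2 differed in opposite directions in the cell lines, each by more than 2 scanner SDs, and neither is one of the 10 members. How many of all genes met this rule was not counted. GTF2H1, a core subunit of TFIIH, was higher by 0.64 in HN4/DDP and differed by -1.29 in HN30/DDP. POLD3, a subunit of polymerase delta, was higher by 0.47 in HN4/DDP and differed by -1.23 in HN30/DDP. With 1 array per condition, whether the lines differ was not tested.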

How the results depend on the processing

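Replicate numbers gave no pairing of samples, because all 4 groups hold a single array, numbered 1. The limma fit pairs the arrays by cell line instead. Median scaling moved the median of all genes in HN30/DDP by -0.42, and the share of calls that were higher from 59.9% to 36.3%. The normexp correction gave 46.6%. The cause of the changes below was not tested, except where fewer or more genes can pass a fold.

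The median of the members in HN30/DDP moved to -0.55 with median scaling and to 0.081 when the probes of a gene were averaged. The mean of probes takes in probes not well above background. That of the other genes there moved to -0.56 with quantile normalization, -0.65 with the deposited log2 values, -0.58 with the brightness trend taken off and -1.45 with median scaling. The count of members higher in HN4/DDP was 0 with the mean of probes (8.87% of all genes), 0 past 2 (3.62%) and 3 past 0.5 (18.9%). Members lower in HN30/DDP numbered 4 with median scaling (23.9% of all genes), 0 with the mean of probes (12.2%), 0 past 2 (2.75%) and 4 past 0.5 (26.4%), and members higher there 2 past 0.5 (32.1%). Other genes higher in HN4/DDP numbered 1 with a pseudocount of 16 (6.5% of all genes), 0 past 2 (3.62%) and 5 past 0.5 (18.9%). Other genes lower in HN4/DDP numbered 1 with quantile normalization (7.8% of all genes) and 1 with the deposited values (7.87%). They numbered 0 past 2 (2.2%) and 11 past 0.5 (22.6%). Other genes higher in HN30/DDP numbered 3 with quantile normalization (18% of all genes) and 3 with the deposited values (17.8%). With the trend off they numbered 3 (19.3%), and past 0.5 they numbered 5 (32.1%). Other genes lower there numbered 12 with quantile normalization (13.1% of all genes), 12 with the trend off (11%) and 4 past 2 (2.75%).

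With median scaling limma called 297 genes at an adjusted p under 0.05, none of them a member. In the other settings it called 0, with 2537 at an unadjusted p under 0.05 in the main one. Over both lines DDB1 turned from -0.24 to 0.071 with quantile normalization, 0.066 with the deposited values and 0.044 with the trend off, and XPA from -0.12 to 0.30 with the mean of probes. With 1 pair left out, DDB1 ran from -0.61 (without the HN4 pair) to 0.14 (without the HN30 pair) and XPA from -0.27 to 0.027. Leaving out a pair leaves 1 line and no test.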
